A study of Capra hircus with 29 samples.

Results

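Oocytes of large follicles were compared with oocytes of medium follicles in the low fertility population of the Ji'ning grey goat (Capra hircus). The members are the 5 samples named LLO (low fertility, large follicle) and the 5 named LMO (low fertility, medium follicle), 10 of the 29 oocyte samples used here. By the series description the low fertility goats bore fewer than 2 kids per birth and the high fertility goats more than 3. The methods of the study instead place goats with 2 kids in the low and goats with 3 kids in the high population, with large follicles over 7 mm and medium follicles from 3 mm to 7 mm. Each population had 15 goats, and a sample held 2 to 3 oocytes. The methods describe pooling of the oocytes of each follicle class for the high fertility population and a split of each class into 5 samples, and the goats behind each LLO or LMO sample are not given. The same follicle classes of the high fertility population, HLO (large) and HMO (medium) with 5 samples each, serve as a comparison. The labels give no genotype, and their treatment entry repeats the group name. P-values therefore measure the spread between samples that may come from 1 pool, which may be technical, and not the spread between goats. The age of the goats was not given in the sources used here. Of the 21343 genes in the expression table, 8396 exceeded 0.5 FPKM (fragments mapped to a transcript, scaled for its length and for the size of the library) in at least 4 of the 10 samples and were tested.

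An oocyte builds up a store of mRNA, ribosomes and mitochondria while its follicle grows, and it stops transcription near the end of growth. The stored mRNAs are kept silent and are translated or removed during meiotic maturation and after fertilization. Mitochondria carry their own small genome, which encodes subunits of the respiratory chain and of the ATP synthase, while the other subunits and all proteins of the mitochondrial ribosome come from nuclear genes. Genes are ordered below from mitochondria and ribosomes through protein quality control and metabolism to the stored oocyte mRNAs and the signals between oocyte and follicle.

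The summed share of mitochondrially encoded mRNA had a lower mean in LLO than in LMO, with an exact permutation p of 0.0317 that was 0.0952 after adjustment. All 13 mitochondrially encoded mRNAs had a lower fitted level in LLO, and 9 of them passed both limits used for counting, which were an unadjusted p below 0.05 together with a change of more than 1 log2 unit. Of all tested genes 2.51% passed both, but the 13 may rise and fall together and are not independent results. Nuclear genes for the respiratory chain, for cytosolic ribosomes and for mitochondrial ribosomes had list medians below 0, and these medians turned above 0 when LLO replicates 2 and 5 were left out. A smaller set of genes (SNURF, CALML4 and LIN7C among them) was higher in LLO. No gene passed the Benjamini-Hochberg adjusted threshold in limma's moderated test over the 8396 genes, where the smallest adjusted p was 0.95.

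Some samples stood apart from their group. Summed FPKM ranged from 347806 to 448945 in 9 samples and was 222697 in LMO replicate 2. LLO replicates 2 and 5 were each other's nearest sample (Pearson r = 0.879 on log2(FPKM + 1)), and lay far from the other 8 on the second principal component, at -57.6 and -91.3 where the others lay from -2.51 to 45.1. LLO replicate 3 was closest to LMO replicate 3 (r = 0.975) and LLO replicate 1 to LMO replicate 5 (r = 0.965). Correlations within LLO had a median of 0.812 over 10 pairs and those within LMO a median of 0.908 over 10 pairs, while the 25 pairs between the groups had a median of 0.85. The samples share the gene set and its range of levels, so these values are descriptions only. LLO replicate 4 held little mitochondrially encoded mRNA, 11.2 FPKM in sum, where the other 9 samples held 211 to 4610 FPKM. No 2 of the 10 samples held identical values.

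The spread among samples was also compared between the groups. The distance to group centroid was 84.3 ± 6.12 in LLO and 60.2 ± 16.6 in LMO (SD, n = 5 each), in units of log2(FPKM + 1) over the tested genes. The exact two-sided permutation test over 252 assignments gave p = 0.103, with 0.155 after adjustment over the 3 single values tested. When each sample was left out in turn, the exact permutation p ran from 0.0159 without LMO replicate 2, which is the most distant LMO sample on this same measure, to 0.254 without LLO replicate 2. A mean of 7599 ± 872 genes exceeded 0.5 FPKM in LLO and 7826 ± 555 in LMO (SD, n = 5 each), and this difference was within the spread between samples (exact permutation p = 0.635, adjusted 0.635). The smallest p these 252 assignments can give is 0.00794.

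**Figure D1:**
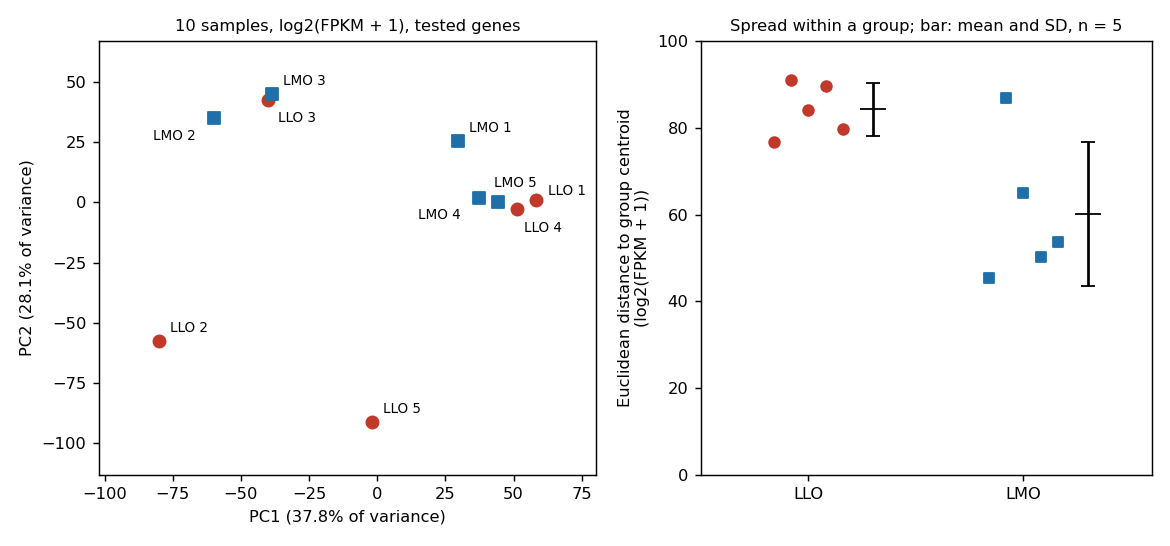
Left, the 10 samples on the first 2 principal components of log2(FPKM + 1) over the tested genes (37.8% and 28.1% of the variance), with LLO as red circles and LMO as blue squares. Right, each sample's Euclidean distance to its group centroid, with the mean and SD of 5 samples as a bar. LLO replicates 2 and 5 lie apart at the bottom, and the other 3 LLO samples lie beside LMO samples.

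Across all tested genes the median log2 fold change of LLO minus LMO was 0.00 on the log2(FPKM + 1) scale. On this scale the fold changes of weakly expressed genes come out too small. An unadjusted p under 0.05 was reached by 370 genes (4.41% of those tested). With no difference between the groups a share of about 0.05 would be expected under this limit, and the count does not exceed that. Both limits were passed by 211 genes (2.51%), of which 28 were higher in LLO (0.333%) and 183 were higher in LMO (2.18%). The adjusted threshold was passed by 0 genes (0.0%). The exact Wilcoxon test per gene had 317 genes below 0.05 unadjusted and 0 past the adjusted threshold. That 0 was nearly fixed by the smallest p this test can give, 0.00794, so it adds nothing to the limma result. In 82 genes (0.977%) the 5 LLO and 5 LMO values did not overlap, with LLO above LMO in 11 and LMO above LLO in 71. With the smallest adjusted p at 0.95, single genes are given below by their values, log2 fold change and standard error (n = 5 each), and a call means that both limits were passed. A call is said to be lost or kept under another setting by its unadjusted p alone, with 0.05 as the limit, whatever the fold change. The split of the 211 genes depended on scaling: 13.3% were higher in LLO with FPKM as deposited, 25.4% with median-of-ratios factors and 26.6% after quantile normalization.

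The counts rested on few samples. In 110 of the 183 genes higher in LMO (60.1%) the lowest values of the 10 samples were those of LLO replicates 2 and 5, which held for 15.1% of all tested genes. LMO replicate 2 was the highest LMO sample in 107 of the 183 (58.5%), against 25.0% of all tested genes. The 183 were picked for low LLO and high LMO values, which by itself can raise both shares, so those of all tested genes are not a like measure. The count of genes higher in LMO was 77 when LLO replicate 2 was left out, 85 when LLO replicate 5 was left out and 60 when both were left out, 32 of them among the 183. Without LLO replicate 4 and LMO replicate 2 together, 15 genes were higher in LLO and 260 in LMO. Without LLO replicate 3, 159 genes were higher in LLO and 348 in LMO.

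**Figure D2:**
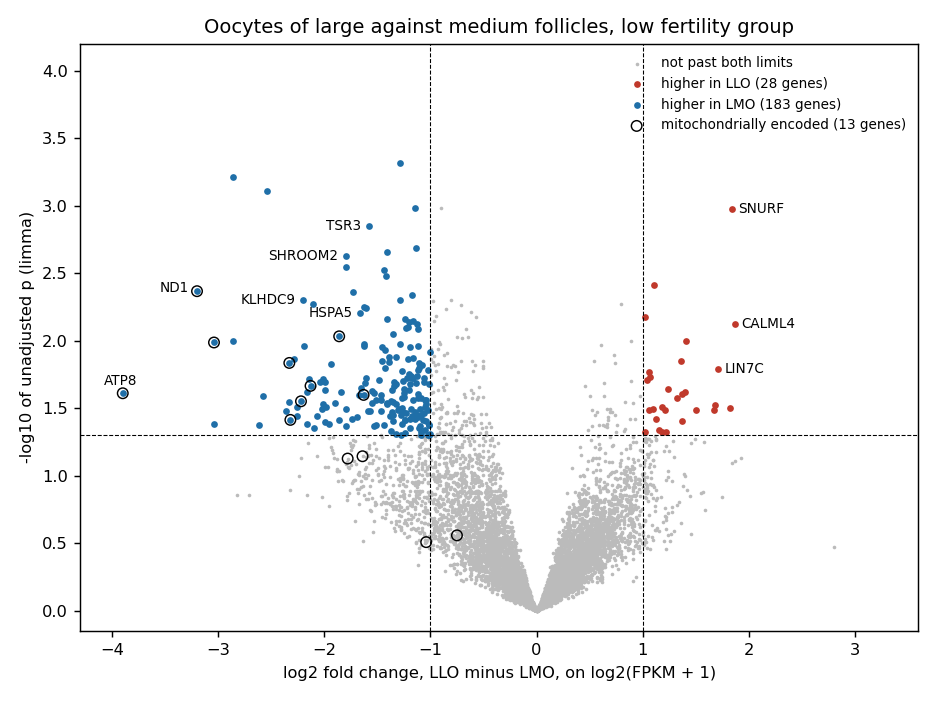
Each point is 1 of the 8396 tested genes, with the log2 fold change of LLO minus LMO on the x axis and the negative log10 of limma's unadjusted p on the y axis. Dashed lines mark the limits, red and blue points are the 28 and 183 genes past both, and black circles mark the 13 mitochondrially encoded genes, which all lie left of 0.

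The mitochondrially encoded genes were the list with the lowest median, -2.13 against 0.00 over all genes. The 9 that passed both limits code for subunits of complex I (ND1, ND5, ND6), complex III (CYTB), cytochrome c oxidase (COX1, COX2, COX3) and the ATP synthase (ATP6, ATP8), and 0 of the 13 passed in the other direction. These 9 are 69.2% of the list, against 2.51% of all tested genes. The 13 genes belong to 1 small genome and may rise and fall together in a sample. They are not 13 independent results, and the 2 shares are not a like measure. ND1 (ENSCHIG00000000006), a core subunit of complex I, had 16, 28.4, 10.7, 0.552 and 19.3 FPKM in LLO replicates 1 to 5. Its LMO values were 37.0, 166, 458, 18.4 and 215 FPKM in replicates 1 to 5. The ND1 values of the groups overlapped only through LMO replicate 4, which lay below LLO replicates 2 and 5. The log2 fold change of ND1 was -3.20 (standard error 0.941, adjusted p = 0.95 in limma), and its call was kept in each of the 21 alternative settings tried. Leaving out LLO replicates 2 and 5, the highest LLO samples for ND1, can only enlarge the fall, which was then -3.94. The log2 fold change of ND1 was -2.31 without LLO replicate 4 and LMO replicate 2.

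ATP6 (ENSCHIG00000000022), part of the proton channel of the ATP synthase, had 17.9, 42.9, 13.3, 1.24 and 23.8 FPKM in the LLO samples. In the LMO samples it had 39.4, 155, 848, 15 and 289 FPKM. LMO replicates 2, 3 and 5 were above every LLO sample, and LMO replicates 1 and 4 lay within the LLO range. The log2 fold change of ATP6 was -3.04 (standard error 1.03). COX1 (ENSCHIG00000000016), the catalytic subunit of cytochrome c oxidase, had 9.61, 8.41, 3.80, 0.392 and 1.68 FPKM in LLO and 15.7, 8.82, 38.3, 7.95 and 18.5 FPKM in LMO. Its log2 fold change was -1.86 (standard error 0.617), and only LMO replicates 2 and 4 lay within the LLO range.

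ATP8 (ENSCHIG00000000021), a small accessory subunit of the ATP synthase, had the largest fitted difference of all genes past the limits, -3.90 (standard error 1.55). It lay between 0 and 3.10 FPKM in the 5 LLO samples. In LMO it was 2.29 FPKM in replicate 1, 99.0 in replicate 2, 1150 in replicate 3, 361 in replicate 5 and was listed at 0 in replicate 4. Thus 3 of the 5 LMO samples were above all LLO samples for ATP8 and the other 2 were within their range. The log2 fold changes of COX2, COX3, CYTB, ND5 and ND6 were -2.13, -2.32, -2.22, -1.63 and -2.33. ND2, ND3, ND4 and ND4L did not pass the limits, with log2 fold changes of -1.04, -1.64, -1.78 and -0.75.

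Summed over the 13 genes, the share of all FPKM was 0.0771%, 0.141%, 0.0473%, 0.00266% and 0.135% in LLO replicates 1 to 5. In LMO replicates 1 to 5 it was 0.188%, 0.342%, 1.1%, 0.0867% and 0.409%. Every LMO sample but replicate 4 was above every LLO sample. The means were 0.0806 ± 0.0588% in LLO and 0.424 ± 0.396% in LMO (SD, n = 5 each), with an exact two-sided permutation p of 0.0317, which was 0.0952 after adjustment over the 3 single values. The difference of the mitochondrially encoded share was -0.3436 percentage points with all samples and -0.3241 without LLO replicate 4, where the exact permutation p was 0.0794. Leaving out any other LLO sample also brought this p above 0.05 (0.0556 to 0.0794), in designs of 4 against 5 samples. Both limits were passed by 5 of the 13 genes without LLO replicate 4, by 4 without LMO replicate 3, by 4 without LMO replicate 5, by 3 with array weights and by 1 in the exact Wilcoxon test. The part of LLO replicate 4 and of the 3 high LMO samples in this difference beyond these values was not tested.

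**Figure D3:**
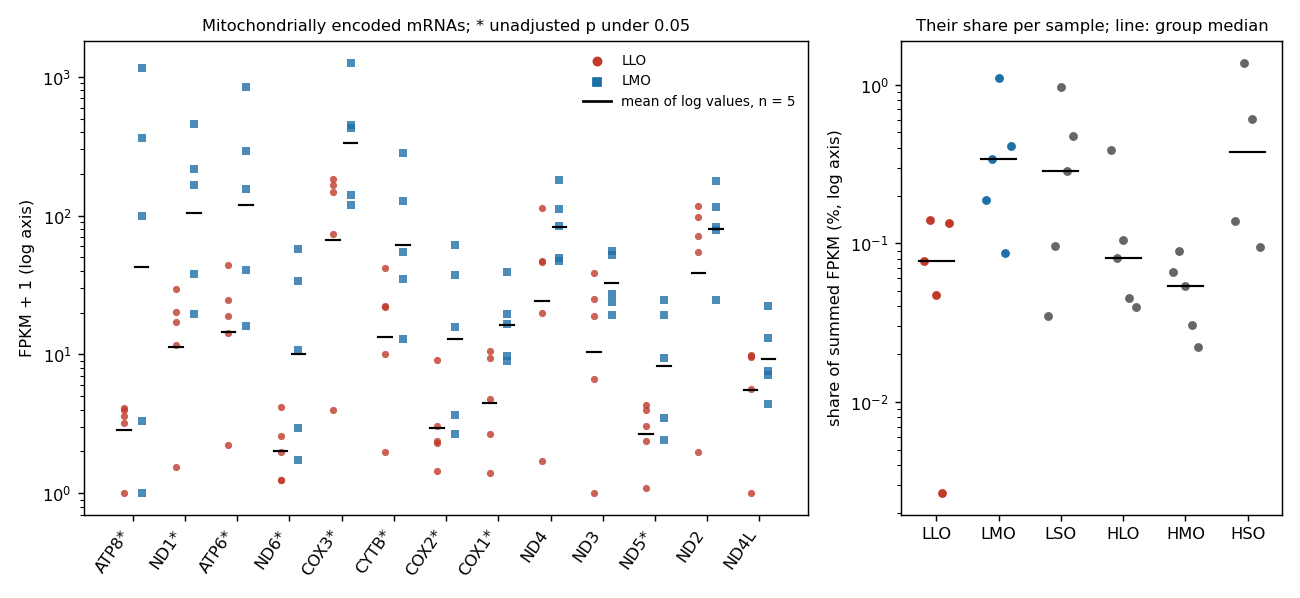
Left, FPKM + 1 on a log axis of each mitochondrially encoded gene in the 5 LLO (red circles) and 5 LMO (blue squares) samples, with black lines at the mean of the log values and asterisks at an unadjusted p under 0.05. Right, the summed share of these genes in percent of all FPKM, on a log axis, in every oocyte group, with lines at the medians. The median is 0.342% in LMO and 0.0771% in LLO.

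The same share was taken in the other oocyte groups of the study. LSO samples (low fertility, small follicle) ranged from 0.0347% to 0.967% with a median of 0.287%, and HSO samples (high fertility, small follicle) from 0.0948% to 1.37% with a median of 0.374%. In the high fertility population the medians of large and medium follicles stood in the other order, at 0.0813% in HLO (large) and 0.0538% in HMO (medium). The ranges overlapped, at 0.0396% to 0.389% in HLO and 0.0222% to 0.0894% in HMO, and this difference in share was not tested. All 13 mitochondrially encoded genes had a fitted difference of HLO minus HMO above 0, with a median of 0.83, and 0 of them passed both limits there. The difference between the populations, tested as (LLO - LMO) - (HLO - HMO), had an unadjusted p under 0.05 for 11 of the 13 genes, against 8.73% of all tested genes (733 of 8396). Here too the 13 genes may rise and fall together, so these shares are not a like measure. For ND1 this interaction was -4.47 (standard error 1.25, adjusted p = 0.314 in limma). The 2 contrasts share no samples.

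Nuclear genes for the respiratory chain and the ATP synthase, 76 of them tested, had a median log2 fold change of -0.65, with 58 fitted below 0 and 18 above. Both limits were passed by 3, all higher in LMO, a share of 3.95% against the 2.51% of all genes. Among them NDUFS3, a core subunit of complex I, and UQCRFS1, the iron-sulfur protein of complex III, had log2 fold changes of -1.35 and -1.24 with overlapping groups. Leaving out LLO replicate 2, LLO replicate 5, LMO replicate 1 or LMO replicate 2 ended either call, and leaving out LMO replicate 4 or LMO replicate 5 also ended that of UQCRFS1.

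The direction of this list turned with LLO replicates 2 and 5. They held the 2 lowest values of the 10 samples in 39 of the 76 genes (51.3%), against 15.1% of all tested genes. Without both samples the list median moved from -0.65 to 0.18. The mitochondrially encoded genes differed in this respect, since LLO replicates 2 and 5 were the 2 lowest samples in 0 of those 13, and their median was -2.80 without both. These samples held the highest summed shares of the 13 genes in LLO, 0.141% and 0.135%, so that lower median is no check of the difference.

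The same 2 samples were low in ribosomal protein genes. Of 129 tested genes for cytosolic ribosomal proteins, 97 were fitted below 0 and 32 above, with a median of -0.62, and LLO replicates 2 and 5 were lowest in 68 (52.7%). The summed level of this list was 25800, 13600, 35900, 28700 and 7810 FPKM in LLO replicates 1 to 5. In LMO it ranged from 23100 to 32300 FPKM with a median of 26000 FPKM. LLO replicates 1, 3 and 4 lay within or above the LMO range, while replicates 2 and 5 lay below it. Without them the list median was 0.12. Both limits were passed by 4 genes, RPS28, RPS3A, RPL9 and RPL10A, all higher in LMO, a share of 3.1% that is near the 2.51% of all tested genes. Each shares its symbol with other genes of the table. Reads that match more than 1 place were not kept by the study's methods, so their values are uncertain. RPL9 (ENSCHIG00000011416), a protein of the large subunit, had 78.3, 4.86, 55.8, 6.64 and 3.16 FPKM in LLO and 43.0 to 64.9 FPKM in LMO, so LLO replicates 2, 4 and 5 were below and replicate 1 above all LMO samples. The call of RPL9 was lost when any of LLO replicates 2, 4 and 5 or LMO replicates 3 and 4 was left out.

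Genes for mitochondrial ribosomal proteins had a median of -0.47 over 68 tested genes, with 49 below 0. Both limits were passed by 2 of them, 2.94% against 2.51% of all tested genes. MRPL37 (ENSCHIG00000017117), a protein of the large mitochondrial subunit, had 53.5, 2.38, 39.2, 41.0 and 7.08 FPKM in LLO and 68.4, 65.2, 58.7, 81.1 and 64.1 FPKM in LMO. Its groups did not overlap, and the log2 fold change was -1.84 (standard error 0.725), which was -0.59 without LLO replicates 2 and 5, and the call was lost without either. MRPL55 had a log2 fold change of -2.01 (standard error 0.826), with 1.27 and 1.66 FPKM in LLO replicates 2 and 5, and its call was lost without either of these and without any LMO sample but replicate 3. MRPS27, of the small mitochondrial subunit, was fitted higher in LLO at 0.91 (standard error 0.43) and did not pass. The list median was 0.22 without LLO replicates 2 and 5.

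**Figure D4:**
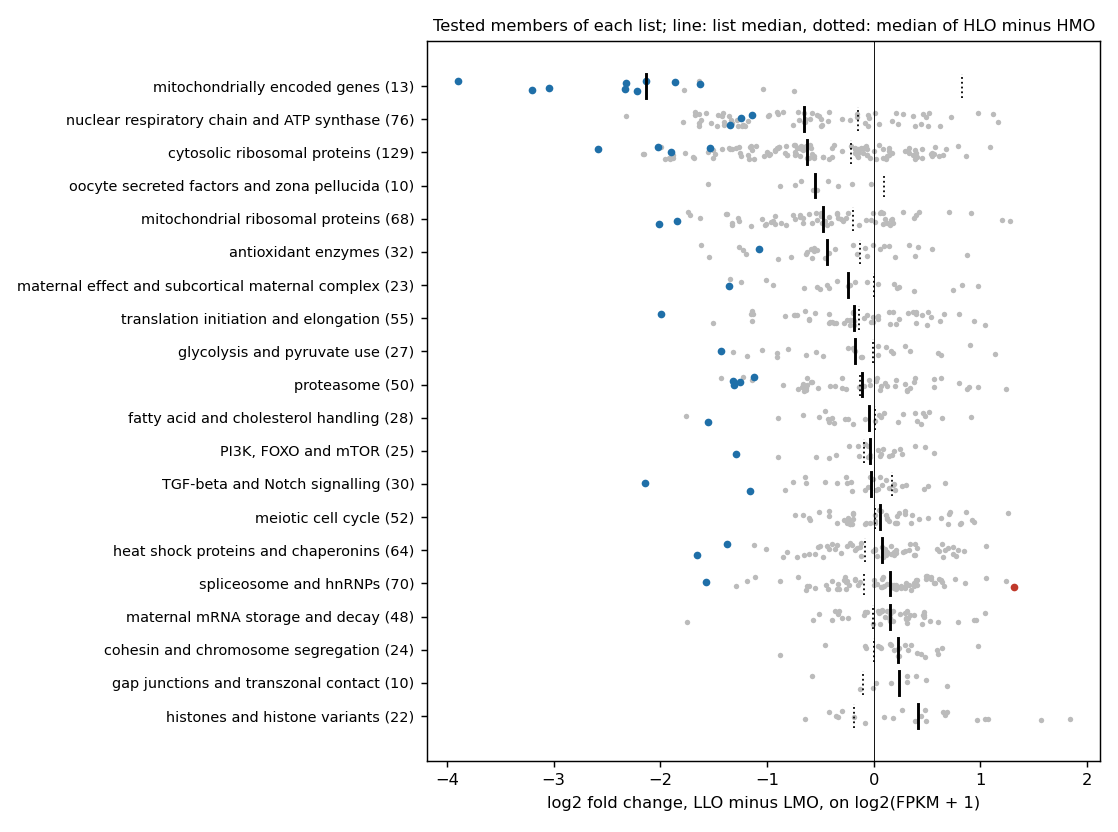
Log2 fold change of LLO minus LMO of every tested member of the 20 gene lists, with the number tested in brackets. Solid lines mark the list medians, dotted lines the medians of HLO minus HMO of the same genes, and coloured points the members past both limits (blue higher in LMO, red higher in LLO). The mitochondrially encoded genes lie farthest left at a median of -2.13, with 0.83 in the high fertility population.

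Among the genes with no overlap between the groups and higher in LMO, KLHDC9 (ENSCHIG00000016661), a kelch domain protein, had the largest log2 fold change, -2.20 (standard error 0.663). Its LMO samples lay between 20.9 and 29.9 FPKM. The LLO samples had 12.8, 0.833, 18.2, 5.56 and 0.666 FPKM, lowest in replicates 2 and 5. NPTX2 (ENSCHIG00000016145), a secreted pentraxin, had 6.32, 6.90, 14.1, 8.78 and 3.32 FPKM in LLO and 23.4, 67.7, 21.8, 23.6 and 19.3 FPKM in LMO. The LMO samples other than replicate 2 were close together and replicate 2 was well above them, and the log2 fold change of NPTX2 was -1.80 (standard error 0.5).

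SHROOM2 (ENSCHIG00000020188), which links apical actin to cell shape, had 6.82, 2.29, 10.4, 2.10 and 2.89 FPKM in LLO and 10.9, 30.2, 17, 17.9 and 13.5 FPKM in LMO. LLO replicate 3 and LMO replicate 1 were nearly level, and the other samples were clearly apart (log2 fold change -1.80, standard error 0.487). TSR3 (ENSCHIG00000016515), an enzyme that modifies 18S ribosomal RNA, was at or below 0.925 FPKM in LLO, and at 2.41, 10.1, 2.69, 1.44 and 2.05 FPKM in LMO. Its log2 fold change was -1.58 (standard error 0.399). DNLZ (ENSCHIG00000019744), a cochaperone of the mitochondrial HSP70, had 1.64, 0, 0.361, 0.230 and 0.386 FPKM in LLO and 2.25, 8.18, 1.78, 2.39 and 1.92 FPKM in LMO (log2 fold change -1.41, standard error 0.378).

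CDKN1B (ENSCHIG00000016012) codes for p27, an inhibitor of cyclin-dependent kinases that restrains growth of primordial follicles. It had 2.38, 0.953, 5.74, 5.77 and 1.80 FPKM in LLO and 7.90, 11.2, 8.22, 9.06 and 6.30 FPKM in LMO. LLO replicates 3 and 4 came close to the lowest LMO sample, and the log2 fold change was -1.29 (standard error 0.437), or -0.81 and past neither limit without LLO replicates 2 and 5. PLEKHG2, GPRC5A, an orphan receptor, and C29H11orf24 had log2 fold changes of -1.44, -1.34 and -1.29 without overlap of the groups. The call of GPRC5A was lost when LLO replicate 2, LLO replicate 5 or LMO replicate 4 was left out. KLHDC9, NPTX2, SHROOM2, TSR3, DNLZ, PLEKHG2 and C29H11orf24 kept an unadjusted p under 0.05 in each of the 21 alternative settings.

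**Figure D5:**
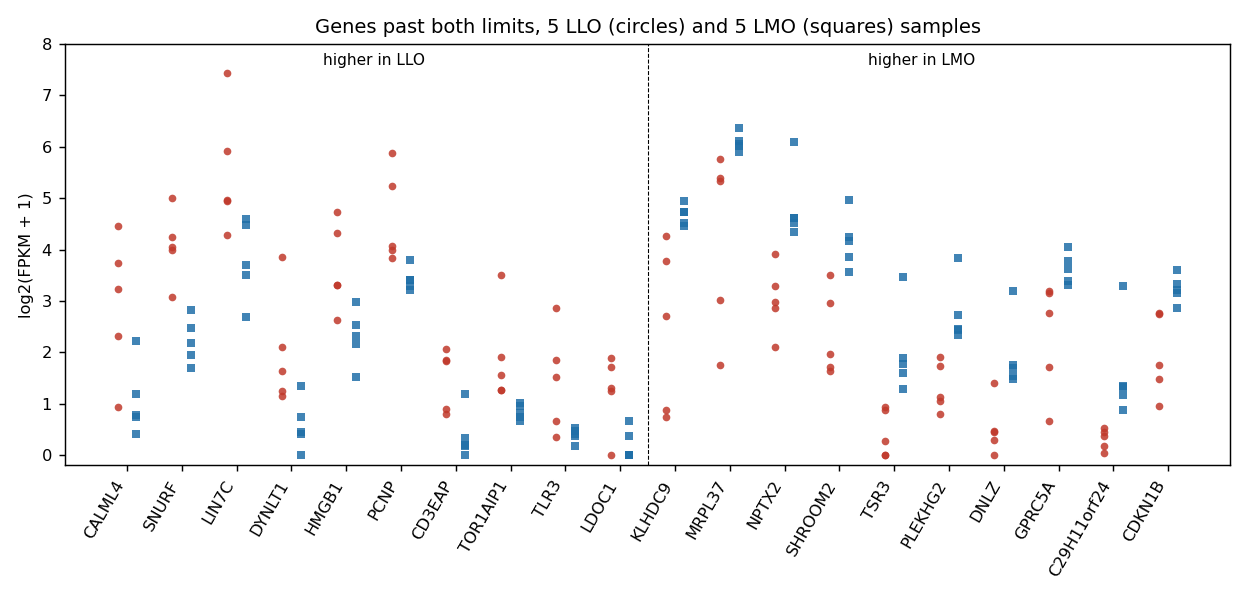
Log2(FPKM + 1) in each of the 5 LLO (red circles) and 5 LMO (blue squares) samples for the 10 genes named as higher in LLO and the 10 named as higher in LMO. In SNURF, PCNP and TOR1AIP1 and in all 10 genes on the right the groups do not overlap, and LMO replicate 2 is the detached highest point of NPTX2, DNLZ and C29H11orf24.

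Of the 28 genes higher in LLO, 3 had no overlap between the groups. SNURF (ENSCHIG00000022019), whose transcript comes from the imprinted SNURF-SNRPN locus, had 14.9, 15.6, 7.39, 31.2 and 17.9 FPKM in LLO and 2.23, 2.88, 4.58, 3.54 and 6.12 FPKM in LMO. Its log2 fold change was 1.84 (standard error 0.449), it was 1.79 without LLO replicates 2 and 5, and its call was kept in the other settings too. A further gene carries the same symbol. Only unique matches were kept by the study's methods, so reads that match both genes may be missing. PCNP (ENSCHIG00000008043), a nuclear protein whose symbol 4 genes share, had 13.2 to 57.6 FPKM in LLO and 8.33 to 12.9 FPKM in LMO (log2 fold change 1.18, standard error 0.492), with the highest values in LLO replicates 2 and 5. This call was lost when LLO replicate 2 or 5 or LMO replicate 1, 2, 3 or 4 was left out. TOR1AIP1 (ENSCHIG00000009486), which codes for LAP1 of the inner nuclear membrane and shares its symbol with another gene, had 1.41, 2.78, 1.42, 10.3 and 1.96 FPKM in LLO and 0.579 to 1.01 FPKM in LMO (log2 fold change 1.07, standard error 0.401).

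CALML4 (ENSCHIG00000005207), a calmodulin-like protein, had the largest log2 fold change of the 28, 1.87 (standard error 0.598). Its LLO values were 8.46, 12.4, 0.919, 20.9 and 3.98 FPKM and its LMO values 3.66, 1.27, 0.336, 0.731 and 0.680 FPKM, so LLO replicate 3 lay within the LMO range. LIN7C (ENSCHIG00000012519), a scaffold protein of cell junctions, had 30.2, 59.1, 18.5, 30 and 171 FPKM in LLO and 12, 5.49, 10.3, 23.2 and 21.2 FPKM in LMO (log2 fold change 1.71, standard error 0.628), and LLO replicate 5 was the highest of all. Without LLO replicates 2 and 5, LIN7C had a log2 fold change of 0.94 and passed neither limit.

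HMGB1 (ENSCHIG00000014987), an abundant chromatin protein, had 5.21, 25.5, 8.91, 8.89 and 19.1 FPKM in LLO and 1.87 to 6.85 FPKM in LMO (log2 fold change 1.36, standard error 0.485). Without LLO replicates 2 and 5 its log2 fold change was 0.78, past neither limit. The other gene of this symbol, at 319 to 2370 FPKM, had 1.01 (standard error 0.563) and did not pass. DYNLT1, a light chain of the dynein motor, and TLR3, the receptor for double-stranded RNA, had log2 fold changes of 1.41 and 1.06, with LLO replicate 4 the highest sample at 13.5 and 6.32 FPKM. Without LLO replicate 4 their log2 fold changes were 0.95 and 0.71, under the fold limit. CD3EAP, a subunit of RNA polymerase I, and LDOC1, a regulator of transcription, were low throughout, with at most 3.17 and 2.70 FPKM, and log2 fold changes of 1.11 and 1.02. Without LLO replicates 2 and 5, LDOC1 had a log2 fold change of 0.64 and passed neither limit. LLO replicate 4 was the highest LLO sample in 14 of the 28 genes.

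Genes for protein quality control mostly stayed within the limits. HSPA5 (ENSCHIG00000025078), the BiP chaperone of the endoplasmic reticulum, was an exception with 4.34, 1.65, 4.40, 15.3 and 2.67 FPKM in LLO and 13.1, 21.6, 9.16, 18.6 and 21.9 FPKM in LMO. All LLO samples but replicate 4 were below all LMO samples, and the log2 fold change of HSPA5 was -1.66 (standard error 0.517), or -1.14 without LLO replicates 2 and 5, where its p was above 0.05. DNAJB1, a cochaperone of cytosolic HSP70 whose symbol 2 genes share, had a log2 fold change of -1.37 (standard error 0.56), lost without LLO replicate 2 or 5 or LMO replicate 2. These were 2 of 64 tested heat shock proteins and chaperonins (3.12%, against 2.51% of all tested genes), whose median was 0.08. Of 50 tested proteasome genes 4 passed both limits (8.0%, against 2.51% of all tested genes), all higher in LMO, and the list median was -0.11. PSME2, a subunit of the PA28 activator, had 2.69 to 5.73 FPKM in LMO and 0.132 to 2.61 FPKM in LLO without overlap (log2 fold change -1.12, standard error 0.41), and its call was lost without LLO replicate 2 or 5. PSMG4, an assembly chaperone, had a log2 fold change of -1.25 (standard error 0.487), lost without LMO replicate 1 or 2.

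In translation and splicing, 3 genes passed the limits, 1.82% and 2.86% of these lists against 2.51% of all tested genes. EIF3F (ENSCHIG00000020447), a subunit of initiation factor eIF3 whose symbol 2 genes share, had 10.4, 0.612, 11.9, 31.5 and 0.681 FPKM in LLO and 19.5 to 40.5 FPKM in LMO. LLO replicates 2 and 5 were lowest by far, LLO replicate 4 lay within the LMO range, and the log2 fold change of EIF3F was -1.99 (standard error 0.763), with the call lost without either of the former. It was the 1 gene past the limits among 55 tested translation factors, whose median was -0.18. Of 70 tested genes of the spliceosome and the hnRNPs, SNRPD1 was higher in LLO and SNRPF lower. SNRPD1 (ENSCHIG00000005557), a core Sm protein, had 406, 622, 194, 468 and 576 FPKM in LLO and 255, 102, 117, 196 and 224 FPKM in LMO (log2 fold change 1.32, standard error 0.533). LLO replicate 3 was the only LLO sample within the LMO range, and the call of SNRPD1 was lost without LLO replicate 2 or 5 or LMO replicate 2 or 3. SNRPF, also a core Sm protein, was listed at 0 in LLO replicates 1, 4 and 5 and had 3.67 to 9.87 FPKM in LMO (log2 fold change -1.57, standard error 0.664). Its call was lost without LLO replicate 1, 4 or 5, without LMO replicate 2 or 3 and under other scalings.

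Metabolic genes gave 1 gene past the limits in each of 3 lists. The shares of 3.7%, 3.12% and 3.57% were near the 2.51% of all tested genes. PGAM2, a phosphoglycerate mutase of glycolysis, had 1.31, 0, 3.25, 2.33 and 0.187 FPKM in LLO and 3.01 to 13.5 FPKM in LMO (log2 fold change -1.43, standard error 0.494). Without LLO replicates 2 and 5 the log2 fold change of PGAM2 was -0.81, past neither limit. It stood among 27 tested genes of glycolysis and pyruvate use with a median of -0.17. PKM, which makes pyruvate in the last step of glycolysis, had 5.42 to 9.62 FPKM in LLO and 10.2 to 20.5 FPKM in LMO without overlap. Its log2 fold change of -0.91 (standard error 0.397) passed the p threshold and not the fold limit, and the p rose above 0.05 without LLO replicate 1, 2 or 5 or LMO replicate 1, 2, 3 or 4. GLRX5, a mitochondrial glutaredoxin of iron-sulfur cluster assembly, was the 1 gene of 32 tested antioxidant genes past the limits (log2 fold change -1.07, standard error 0.47), and 2 genes share its symbol. Its call was lost without LLO replicate 2, 3 or 5 and without any LMO sample but replicate 3. The antioxidant list had a median of -0.44, which was 0.11 without LLO replicates 2 and 5.

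DGAT2 (ENSCHIG00000010320), the enzyme of the last step of triglyceride synthesis, had 1.11, 0.0904, 0.504, 13.1 and 0.0187 FPKM in LLO and 4.8, 11, 5.1, 5.82 and 2.73 FPKM in LMO. LLO replicate 4 was the highest of all 10 samples and the other 4 LLO samples were below every LMO sample, with a log2 fold change of -1.55 (standard error 0.637) that lost its call without LLO replicate 2, 3 or 5 or LMO replicate 2. SQLE, an enzyme of cholesterol synthesis, was low in both groups, with at most 1.39 FPKM, and had a log2 fold change of -0.66 (standard error 0.215), past the p threshold and short of the fold limit. Without LLO replicates 2 and 5 it was -0.49, and the p rose above 0.05. The 28 tested genes of fatty acid and cholesterol handling had a median of -0.04.

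Genes that define the oocyte were present at high levels in both groups. Of the 14 oocyte markers in the table, 12 were tested, 0 passed the limits, and their summed level was 2370 to 8070 FPKM in LLO and 2600 to 6400 FPKM in LMO. GDF9, the oocyte growth factor that acts on granulosa cells, had 434, 33.1, 90.5, 504 and 210 FPKM in LLO and 284, 31.9, 130, 513 and 463 FPKM in LMO. Its groups covered the same range (log2 fold change -0.20, standard error 0.894). BMP15, the partner of GDF9, had 67.6 to 180 FPKM in LLO and 118 to 306 FPKM in LMO (log2 fold change -0.57, standard error 0.513). ZP3, a sperm-binding glycoprotein of the zona pellucida, ranged from 57.5 to 2950 FPKM in LLO and from 521 to 2080 FPKM in LMO (log2 fold change -1.55, standard error 0.902), and ZP4 had a log2 fold change of -0.68 (standard error 0.725). All 10 tested genes for zona proteins and oocyte-secreted factors were fitted below 0, with a median of -0.55, and 0 passed the limits. The median was -0.22 without LLO replicates 2 and 5, where the log2 fold change of GDF9 was 0.47.

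Maternal effect genes act in the egg and early embryo. Of 23 tested, NLRP9 (ENSCHIG00000024985), an oocyte member of the NLRP family, passed the limits with 37.8, 8.70, 31.9, 45.7 and 16.3 FPKM in LLO and 66.9, 86.9, 44.4, 73.3 and 54.4 FPKM in LMO. LLO replicate 4 alone reached into the LMO range, and the log2 fold change of NLRP9 was -1.36 (standard error 0.534), or -0.72 without LLO replicates 2 and 5, and the call was lost without either. LHX8 and SOHLH1, transcription factors of the growing oocyte, had log2 fold changes of -1.01 (standard error 0.544) and -1.24 (standard error 0.65) and did not pass. The 1 gene past the limits was 4.35% of the 23 tested, against 2.51% of all tested genes, and the list median was -0.24.

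Stored mRNAs and meiotic genes gave 0 genes past the limits among 48 and 52 tested, with medians of 0.15 and 0.06. BTG4, the adaptor that brings the CCR4-NOT deadenylase to maternal mRNAs, had 1890, 1250, 660, 1310 and 2650 FPKM in LLO and 1230, 173, 529, 1220 and 1420 FPKM in LMO (log2 fold change 0.96, standard error 0.664). EIF4E1B, an oocyte cap-binding protein, had a log2 fold change of 0.94 (standard error 0.664). CKS2, a cofactor of the cyclin-dependent kinase that drives meiosis, was among the most abundant, with 4630, 8790, 4720, 6500 and 8100 FPKM in LLO and 4340, 1440, 4580, 3410 and 4300 FPKM in LMO. The CKS2 values did not overlap, although the gap between LLO replicate 1 and LMO replicate 3 was small, and with a log2 fold change of 0.92 (standard error 0.501) CKS2 did not pass the test.

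Cohesin genes, which hold sister chromatids together, had a median of 0.23 over 24 tested with 20 fitted above 0, and 0 passed the limits. The median was -0.13 without LLO replicates 2 and 5. SMC1B, the meiotic cohesin subunit, had 7.98 to 28.9 FPKM in LLO and 6.99 to 12.5 FPKM in LMO (log2 fold change 0.60, standard error 0.44). Histone genes had a median of 0.42 over 22 tested, with 0 past the limits. HIST1H1D, a linker histone, had 65.6, 113, 1.56, 14.8 and 70.6 FPKM in LLO and 27.5, 10.2, 1.49, 2.33 and 12.9 FPKM in LMO (log2 fold change 1.84, standard error 0.980). LLO replicate 3 and LMO replicate 3 were the lowest for HIST1H1D in their groups.

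Of the 30 tested genes of TGF-beta and Notch signalling, NCSTN and HES1 passed the limits, both higher in LMO. These 2 genes are 6.67% of the list, against 2.51% of all tested genes. NCSTN (ENSCHIG00000027206), the nicastrin subunit of the gamma-secretase that releases the active part of Notch, had 3.25, 0.487, 2.42, 0.826 and 1.11 FPKM in LLO and 4.22, 4.30, 3.46, 5.59 and 4.62 FPKM in LMO. Its groups did not overlap, and the log2 fold change was -1.16 (standard error 0.367), or -0.86 and past neither limit without LLO replicates 2 and 5. HES1 (ENSCHIG00000017929), a transcriptional repressor and target of Notch, had 18.5, 6.11, 48.3, 73.0 and 3.07 FPKM in LLO and 39.8, 267, 65.6, 85.3 and 52.8 FPKM in LMO. LMO replicate 2 was the highest by far, and the log2 fold change of -2.14 (standard error 0.808) lost its call without LMO replicate 2 and without LLO replicate 5.

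The ligand JAG1 had 9.24 to 34.8 FPKM in LLO and 20.3 to 55.7 FPKM in LMO (log2 fold change -0.83, standard error 0.501). The ligands JAG2 and DLL3 were not tested for low values, with at most 2.65 and 0.332 FPKM. The BMP receptors BMPR1A, BMPR1B and BMPR2 lay between 0.272 and 1.82 FPKM, with log2 fold changes of 0.04, -0.25 and -0.01. ID3, a target of BMP signals, had a log2 fold change of -0.26 (standard error 0.648). For the gap junction proteins GJA4, GJC1 and GJA1 the log2 fold changes were -0.58, 0.31 and 0.31. None of the 10 tested genes of gap junctions and transzonal contact passed the limits (0 genes).

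Other genes that the study named for goat oocytes were also compared. GRHPR, a glyoxylate reductase, ranged from 13.3 to 880 FPKM in LLO and from 27.7 to 523 FPKM in LMO (log2 fold change -0.37, standard error 1.15). GPR84, a receptor for medium-chain fatty acids, CYB5A, an electron carrier, and ERAL1, which assembles the mitochondrial ribosome, had log2 fold changes of 0.56, 0.68 and -0.39. HSD17B2, which inactivates estradiol, was not tested. It had 41.7 FPKM in LLO replicate 4 and at most 0.143 FPKM in the other 9 samples.

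Markers of other cell types were looked at because oocytes were freed from granulosa cells by pipetting. Of 21 granulosa markers in the table, 7 were tested, and the summed level was 23.6 to 33.7 FPKM in LLO and 31.4 to 78.9 FPKM in LMO. The fitted difference was below 0 in 3 of these 7 and above 0 in 4, with a median of 0.02. The limits were passed by 1 of them, 14.3% against 2.51% of all tested genes. AMH, NR5A1, LHCGR and AMHR2 were at 0 in all 10 samples, and FSHR and CYP19A1 reached at most 0.252 and 0.244 FPKM. With these, 10 of the 21 markers never exceeded 0.5 FPKM, and the others did in at least 1 sample. STAR (ENSCHIG00000017362), the cholesterol carrier of steroid synthesis, was the 1 granulosa marker past the limits, with 14.7, 11, 17.3, 5.11 and 12.5 FPKM in LLO and 22.5, 39.0, 19.8, 25.1 and 26.0 FPKM in LMO (log2 fold change -1.12, standard error 0.452). In LMO replicate 5 the granulosa sum was 78.9 FPKM, of which STAR held 26.0 FPKM and markers not named here nearly all the rest. Among 10 theca and stroma markers, COL1A2, a chain of collagen type I, passed with at most 1.59 FPKM in LLO and at least 2.01 FPKM in LMO (log2 fold change -1.14, standard error 0.303). Its partner COL1A1 reached at most 0.022 FPKM, and INSL3 and PDGFRA were at 0. The theca and stroma markers summed to 11.9 to 61.8 FPKM in LLO and 10.5 to 50.5 FPKM in LMO. The highest single value among them was 42.5 FPKM. Only 4 of these markers were tested, with 2 fitted below 0 and 2 above and a median of 0.02. COL1A2 was the 1 past the limits (25.0% of the 4, against 2.51% of all tested genes).

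The leukocyte markers AIF1, CD14, CD74, CD79A and TYROBP were at 0 in all 10 samples, and PTPRC reached 0.0538 FPKM. CD52, a surface glycoprotein of lymphocytes, was the only one tested, with 53.9, 0, 667, 3.32 and 7.49 FPKM in LLO and 213, 35.1, 317, 156 and 130 FPKM in LMO (log2 fold change -3.04, standard error 1.35), and it made up nearly all of the leukocyte sum. Endothelial markers summed to 1.1 to 2.67 FPKM in LLO and 1.6 to 4.29 FPKM in LMO, and enterocyte markers to at most 1.08 and 1.52 FPKM. The part of these cells in the genes higher in LMO was not tested. In samples that pool cells, fewer cells of a type and less RNA per cell cannot be told apart.

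The difference between large and medium follicles was set against the same difference in the high fertility population in 1 fit of 4 group means over 20 samples. Of the 733 genes with an unadjusted interaction p under 0.05 (8.73%), 281 had a positive and 452 a negative value, and 0 passed the adjusted threshold (smallest adjusted p 0.253). LOC102182207 (ENSCHIG00000009925), a gene without a given name whose symbol 8 genes share, had the smallest p. It was 9.6 FPKM in LLO replicate 4 and at most 2.06 FPKM in the other LLO and LMO samples, where HMO held 3.20 to 51.4 FPKM and HLO 0 to 1.26 FPKM. The interaction was 4.18 (standard error 0.847), with a log2 fold change of 0.49 between LLO and LMO, past neither limit, and of -3.69 between HLO and HMO, past both.

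PAG12, a pregnancy-associated glycoprotein, had at most 1.27 FPKM in LLO and 0.835 to 2.32 FPKM in LMO, and medians of 0.781 FPKM in HLO and 0.236 FPKM in HMO. Its interaction was -1.76 (standard error 0.357), with a log2 fold change of -1.15 in the low and 0.60 in the high fertility population, and only the former passed both limits. MAPKAPK3, a kinase downstream of p38, and SH3BP4, an adaptor of endocytosis, had interactions of -1.59 (standard error 0.354) and -1.24 (standard error 0.282).

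CALML4, TOR1AIP1, DYNLT1 and TLR3 passed both limits in each population with opposite signs. Without LLO replicate 4 the low fertility log2 fold changes of TOR1AIP1, DYNLT1 and TLR3 were 0.67, 0.95 and 0.71, under the fold limit. CALML4 had a log2 fold change of 1.87 in the low and -1.29 in the high fertility population, where HMO held 5.14 to 12.6 FPKM and HLO 0.916 to 3.65 FPKM. Its interaction was 3.16 (standard error 0.711). TOR1AIP1, DYNLT1 and TLR3 had log2 fold changes of -1.33, -1.62 and -1.04 in the high fertility population and interactions of 2.39, 3.03 and 2.11. SHROOM2 had 0.76 there, past neither limit, and an interaction of -2.56 (standard error 0.582). In limma's test over all 8396 genes, each of these 5 interactions had an adjusted p of 0.253.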

How the data were processed

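Oocyte mRNA was sequenced by the authors. By their methods, reads were matched with fewer than 5 mismatches, duplicates were removed with Picard and unique matches were kept, and the deposited FPKM values were computed with Cufflinks 2.2.1 per gene. The aligner and genome build were not given in the sources used here, no coordinates are reported, and the FPKM values carry no read depth, which was not used here. A column of values of no labelled sample (1) was not used. Counts of reads were not analysed, so no counting intervals are given.

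Groups followed the labels. Genes over 0.5 FPKM in at least 4 of the 10 LLO and LMO samples were tested on log2(FPKM + 1) with limma 3.58.1 (lmFit, eBayes with trend) in R 4.3.3, with Benjamini-Hochberg adjustment over all 8396 genes. Unadjusted limma p-values served for counting and are not printed for single genes, whose fold changes carry limma's standard errors. The interaction used 4 group means over 20 samples. Summaries and exact permutation tests used Python 3.11.15, numpy 2.4.6, pandas 2.3.3, scipy 1.17.1 and matplotlib 3.10.9. The code was tested on simulated data with known changes.

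Named genes were those past both limits without overlap of the samples (up to 10 per direction by size), filled by smallest p to 10. To these were added up to 3 per pathway list by smallest p, genes the study names for oocytes, and the 6 smallest interaction p. Genes named outside this rule (the remaining mitochondrial genes, markers and shared symbols) were chosen with their values seen. Members and lists were chosen with earlier results of these data known. Alternatives were the pseudocount, filters, scaling, array weights, the replicate number as a block, all 29 samples, the Wilcoxon test and leaving out each sample. Leaving out LLO replicates 2 and 5 together, and LLO replicate 4 with LMO replicate 2, was chosen after seeing the data. Of the genes, 3738 share a symbol and 410 have none. Some results are not reported here.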

Additional observations from a re-analysis of the deposited data

Results flagged for a closer look

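In 6 named genes the LMO replicate 2 value lay far above the other 4 LMO samples on the log2(FPKM + 1) scale. The gap to the next sample, as a share of the group's range, was 0.716 for CD3EAP, 0.844 for NPTX2, 0.725 for TSR3, 0.746 for PLEKHG2, 0.835 for DNLZ and 0.808 for C29H11orf24, against Dixon's critical value of 0.71 for 5 samples. These were 6 of 46 groups of values examined (13%). The 6 genes had been picked for passing both limits, and all 6 values come from the same sample. The 1 in 20 that chance gives for independent groups is therefore no measure for this share. LMO replicate 2 is also the sample with the lowest summed FPKM, 222697, and the part of that in these values was not tested. Without LMO replicate 2 the unadjusted p of the 6 genes stayed under 0.05, and the log2 fold change of C29H11orf24 was -0.87, short of the fold limit.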

How the results depend on the processing

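No gene passed the adjusted threshold between LLO and LMO under any alternative tried, which in the Wilcoxon test was nearly fixed by its smallest possible p. The counts of 28 genes higher in LLO, 183 higher in LMO and 370 at an unadjusted p under 0.05 moved as follows. Higher in LLO were 61 with a pseudocount of 0.1, 53 with median-of-ratios factors, 63 after quantile normalization, 63 in 1 fit over all 29 samples and 15 without LLO replicate 4 and LMO replicate 2. Higher in LMO were 315 with a pseudocount of 0.1, 304 with array weights, 385 over 29 samples, 91 in the Wilcoxon test and 60 without LLO replicates 2 and 5. Under 0.05 were 617 without a filter (15908 genes tested), 582 with array weights, 985 over 29 samples and 151 without LLO replicates 2 and 5. Leaving out 1 sample gave 15 to 159 higher in LLO, 77 to 352 higher in LMO and 193 to 717 under 0.05, with the lowest values without LMO replicate 2, LLO replicate 2 and LLO replicate 5 and the highest without LLO replicate 3, LLO replicate 1 and LLO replicate 3. Array weights moved the median of all genes to -0.17.

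With the replicate number as a replicate block, 106 genes were higher in LLO, 311 higher in LMO, 952 under 0.05, and the interaction with fertility group had 1236 genes under 0.05 against 733. Same-numbered LLO and LMO samples deviated together with r of 0.6, 0.5, 0.66, 0.05 and 0.37, so not every pair was over 0.1 and the samples were taken to share only a number. As a hint from the data, numbers 1 to 3 correlated best with their own number, and 4 and 5 did not.

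The interaction had 0 genes past the adjusted threshold, 2 with array weights and 0 to 4 when 1 sample was left out (4 without HMO replicate 2, 2 without LLO replicate 3). Mitochondrially encoded genes past the limits were 3 with array weights, 1 in the Wilcoxon test, 3 without LLO replicate 4 and LMO replicate 2, and 4 to 11 when 1 sample was left out. The mitochondrially encoded share differed by -0.428 to -0.1759 percentage points, the distance to group centroid by 18.64 to 36.86, and the genes detected per sample by -499.6 to 11.15 (positive without LLO replicate 2).

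Genes that turned sign were all far from the threshold. GJA1 was -0.13 without LLO replicate 4 and LMO replicate 2, and LOC102182207 was -0.24 there and -0.09 to 0.76 when 1 sample was left out. Without LLO replicates 2 and 5, GDF9 was 0.47 and GRHPR 0.54, and when 1 sample was left out they ran from -0.85 to 0.38 and from -1.10 to 0.39. With array weights GPR84 was -0.06 and CYB5A -0.01. BMPR1A was -0.18 with array weights, -0.04 without either pair of samples and -0.09 to 0.19 when 1 sample was left out. BMPR2 was 0.01 with median-of-ratios factors, 0.10 after quantile normalization and -0.17 to 0.08 when 1 sample was left out, and ID3 -0.60 to 0.09. The causes were not tested. Of 50 named genes at an unadjusted p under 0.05, 15 kept it in every alternative, 35 lost it in at least 1 and 0 turned.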
